A study of Rattus norvegicus with 9 samples.

Results

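The expression of 10 genes that make or break down cyclic AMP was described in rat liver: the adenylyl cyclases Adcy1, Adcy6, Adcy9 and Adcy10, and the phosphodiesterases Pde3b, Pde4a, Pde4b, Pde4d, Pde7a and Pde8a. They are 10 of 24496 genes in the deposited count table, and all 10 were among the 11924 genes with enough counts to be tested. The 10 genes were chosen by their symbols with the measured FSH-over-vehicle differences of these same libraries already known, so those differences are given as a description and support nothing further. The livers came from female Wistar rats that were fed a western diet from 10 weeks of age and lost their ovaries by surgery after 6 weeks on it. Every animal of both groups also received degarelix, which blocks the receptor for gonadotropin-releasing hormone. Implanted osmotic pumps gave 4 rats follicle-stimulating hormone (FSH), 6 µg/kg each day, and gave 5 rats vehicle. Food was restricted for 12 days and then free for 7 days, and the rats were 19 weeks old and fasted for 4 h when liver was collected for 1 library each. Both groups therefore lack ovaries and have their own gonadotropins lowered, and no animal with intact ovaries or without degarelix was included.

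Cyclic AMP is produced by adenylyl cyclases, mostly in the plasma membrane, where the stimulatory G protein switches them on downstream of receptors such as the glucagon receptor of hepatocytes. Phosphodiesterases hydrolyse it, and the balance sets the activity of protein kinase A and of the exchange factors called Epac. In the fasted liver this pathway drives glycogen breakdown and gluconeogenesis, in part through the transcription factor CREB, which binds the cyclic AMP response element in promoters. The FSH receptor of the ovary also signals through the stimulatory G protein. Its gene, Fshr, was listed at 0 in all 9 libraries, as were 8868 of the 24496 genes in the count table.

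The start regions of the members are shown because cyclic AMP can feed back on genes of its own pathway through CREB sites near promoters. RefSeq promoter windows of the GRCr8 assembly, each 250 bases before to 50 bases after an annotated start, were held for 7 members and gave 15 windows. The core of the cyclic AMP response element, TGACG on either strand (CGTCA when read on the other strand), occurred in 6 of these 15 windows (40.0%) and in 21.2% of all 33469 windows. Pde4d gave 5 of the 15 windows and Pde4a 4, and the content of G and C was not matched. Nothing is therefore read from the difference between these shares. The full palindromic element, which contains the core, occurred in 0 of the 15 and in 1.83% of all windows. The 7 cores, in capitals with their flanks, lay in windows of Adcy9, Pde4a, Pde4d and Pde8a, all of them genes on the plus strand.
Adcy9, core 60 bases before the start (chr10:11645773-11645802): gcccgcgcgcttTGACGcaccgggcgctgc
Pde4a, window 1, 11 bases before the start (chr8:27966964-27966993): agcgtcggcgcaTGACGttcgtccttagca
Pde4a, window 3, 18 bases before the start (chr8:27999383-27999412): ggcacagctcgaCGTCAggctggggagggg
Pde4d, window 3, 231 bases before the start (chr2:42592506-42592535): gtctcccgagctCGTCAagtgatctttggc
Pde4d, window 3, 194 bases before the start (chr2:42592543-42592572): gggggaggagggTGACGttgaacaggcttc
Pde4d, window 4, 19 bases before the start (chr2:42767586-42767615): ggaaaatattaaTGACGgaagagctgcaaa
Pde8a, 86 bases before the start (chr1:144575371-144575400): ggccgcgcttccTGACGcgagacccgcgct

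The windows of Adcy1, Adcy10 and Pde4b did not hold these letters, which says nothing about sites elsewhere. The 250 bases before the start are printed for Adcy10 and for both starts of Pde4b, the members whose levels stood farthest apart between the groups. All are on the plus strand, and no base is in capitals because no core was found.
Adcy10 (chr13:80284066-80284315): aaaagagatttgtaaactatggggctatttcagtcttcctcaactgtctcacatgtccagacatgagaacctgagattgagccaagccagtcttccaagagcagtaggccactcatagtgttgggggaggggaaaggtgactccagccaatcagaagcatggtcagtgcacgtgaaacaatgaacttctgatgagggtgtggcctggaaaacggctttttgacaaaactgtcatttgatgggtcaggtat
Pde4b, window 1 (chr5:122028706-122028955): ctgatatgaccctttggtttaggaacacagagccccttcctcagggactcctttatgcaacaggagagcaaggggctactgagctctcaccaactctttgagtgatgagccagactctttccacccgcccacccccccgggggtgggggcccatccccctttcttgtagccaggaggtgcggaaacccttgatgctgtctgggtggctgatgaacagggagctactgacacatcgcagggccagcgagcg
Pde4b, window 2 (chr5:122222323-122222572): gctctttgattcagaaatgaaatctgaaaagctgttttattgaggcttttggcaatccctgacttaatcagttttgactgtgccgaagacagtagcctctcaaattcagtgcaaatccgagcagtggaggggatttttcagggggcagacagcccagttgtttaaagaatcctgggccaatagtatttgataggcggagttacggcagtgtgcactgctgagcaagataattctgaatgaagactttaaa
G and C made up 47.0% of the Adcy10 window, and 62.3% of Pde4b window 1 and 44.7% of Pde4b window 2, against a median of 51.7% over all windows. Windows of other members were richer, with 84.7% for Adcy1 and 81.0% for Pde8a.

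Among the cyclases, Adcy10 stood apart between the groups, and the other 3 had smaller positive differences. Levels are given as CPM, the counts of a gene per 1e6 counts after scaling, and they are not compared between genes because gene length is not taken out. Adcy10 (ENSRNOG00000053410) encodes the soluble adenylyl cyclase, which answers to bicarbonate and calcium and not to G proteins. It stood at 7.66, 10.9, 6.79 and 9.98 CPM in FSH replicates 1 to 4, against 4.03, 0.936, 2.86, 1.46 and 3.56 CPM in vehicle replicates 1 to 5. All 4 FSH livers lay above all 5 vehicle livers. Vehicle replicates 2 and 4 were the lowest of all. These levels rest on 176 to 269 counts per FSH library and 26 to 81 counts per vehicle library. The means were 8.84 ± 1.93 CPM with FSH (SD, n = 4) and 2.57 ± 1.33 CPM with vehicle (SD, n = 5). The fitted log2 fold change was 1.81 (SE 0.36), a fitted ratio of 3.50. Leaving out any single rat gave log2 fold changes between 1.58 and 2.02. Among all genes tested, 2.19% had every FSH library above every vehicle library, and nothing is read from that share because Adcy10 was chosen with this difference known. In bulk liver, a change in the number of cells of a type and a change in RNA per cell cannot be told apart.

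Adcy10 overlaps another protein-coding gene in the annotation held here, and whether this affects its count is not known. In RefSeq's GRCr8 annotation it overlaps Mpc2, a subunit of the mitochondrial pyruvate carrier, and its next protein-coding neighbours are Dcaf6 and Mpzl1. Mpc2 averaged 65.1 CPM over the 9 libraries, with a log2 fold change of 0.20 (SE 0.08). Dcaf6 had a log2 fold change of 0.48 (SE 0.09) and Mpzl1 one of 0.62 (SE 0.15), so all 3 had higher fitted values with FSH, by less than Adcy10. The libraries kept strand, per the labels' protocols, but whether the counting used strand is not given in the sources used here, and whether reads were shared among these genes was not tested.

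The 3 membrane cyclases overlapped between the groups. Adcy9 (ENSRNOG00000049768), a widely expressed cyclase that forskolin barely stimulates, had 12.4, 14.3, 13.3 and 9.98 CPM in the FSH livers, against 6.44, 8.64, 10.5, 9.47 and 11.0 CPM in the vehicle livers. FSH replicates 1 to 3 lay above every vehicle liver and FSH replicate 4 lay inside the vehicle range. The log2 fold change was 0.44 (SE 0.16), with means of 12.5 ± 1.86 CPM in FSH livers (SD, n = 4) and 9.21 ± 1.79 CPM in vehicle livers (SD, n = 5). Adcy6 (ENSRNOG00000054757), a cyclase that calcium inhibits, had 105, 99.1, 109 and 93.0 CPM in the FSH livers, against 65.6, 99.2, 85.7, 93.0 and 86.2 CPM in the vehicle livers. FSH replicates 2 and 4 fell within the vehicle range, whose low end was vehicle replicate 1 alone. The log2 fold change of Adcy6 was 0.24 (SE 0.11), and 0.16 without vehicle replicate 1. Adcy1 (ENSRNOG00000059479), which calcium and calmodulin stimulate, had 1.83, 2.23, 1.70 and 2.16 CPM in the FSH livers, against 1.99, 0.900, 1.80, 1.34 and 0.957 CPM in the vehicle livers. It rested on 18 to 55 counts per library, the groups overlapped, and the log2 fold change was 0.50 (SE 0.25).

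**Figure D1:**
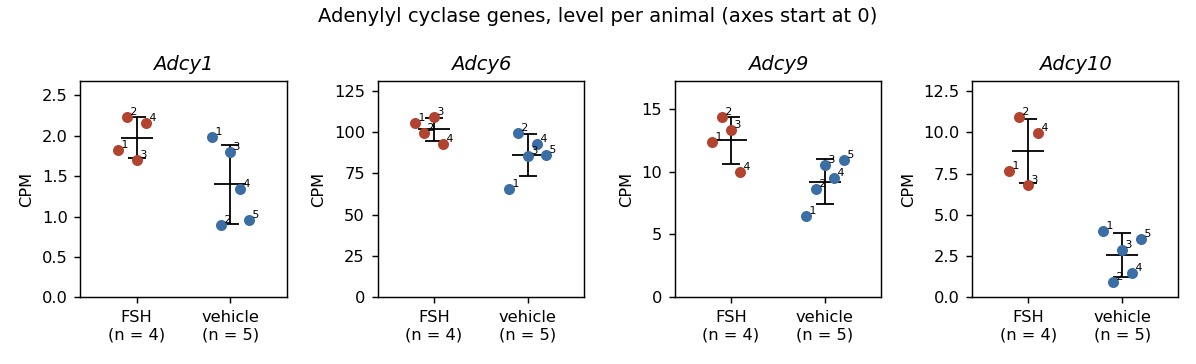
CPM of the 4 cyclase genes in each liver, FSH (n = 4) left of vehicle (n = 5), with the replicate number beside each point, the mean as a long bar and the SD as short bars. Adcy10 is between 6.79 and 10.9 CPM in the FSH livers and at most 4.03 CPM in the vehicle livers, while the points of Adcy1, Adcy6 and Adcy9 overlap.

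Summed over the 10 cyclase genes Adcy1 to Adcy10, the cyclase level was 145 ± 7.10 CPM with FSH (range 135 to 152) and 120 ± 11.1 CPM with vehicle (range 100.2 to 126). Adcy6 took 69.9 ± 2.31% of the cyclase counts with FSH and 71.5 ± 4.87% with vehicle, and Adcy10 took 6.13 ± 1.50% with FSH and 2.23 ± 1.32% with vehicle. These are shares of counts, not of transcripts, and the sum restates the chosen genes, which it contains.

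Among the phosphodiesterases, Pde4b was lower with FSH, Pde4d was higher in most FSH livers, and the other 4 differed little. The Pde4 enzymes are specific for cyclic AMP and are inhibited by rolipram. Pde4b (ENSRNOG00000005905), which is also prominent in immune cells, stood at 3.57, 4.46, 2.70 and 2.33 CPM in FSH replicates 1 to 4, against 6.60, 9.43, 10.7, 5.84 and 5.26 CPM in vehicle replicates 1 to 5. All 4 FSH livers lay below all 5 vehicle livers, and vehicle replicates 2 and 3 were the highest. The counts behind these levels were 54 to 110 per FSH library and 99 to 303 per vehicle library. The means were 3.27 ± 0.952 CPM with FSH (SD, n = 4) and 7.57 ± 2.38 CPM with vehicle (SD, n = 5). The fitted log2 fold change was −1.22 (SE 0.26), a fitted ratio of 0.430. Without any single rat it was −1.41 to −1.06. Of all genes tested, 1.92% had every FSH library below every vehicle library, and nothing is read from this share either.

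Pde4d (ENSRNOG00000042536), another gene of that family, had 3.61, 2.39, 3.63 and 3.16 CPM in the FSH livers, against 2.10, 1.80, 2.76, 2.09 and 1.65 CPM in the vehicle livers. FSH replicates 1, 3 and 4 lay above every vehicle liver, and FSH replicate 2 lay below vehicle replicate 3. The log2 fold change was 0.61 (SE 0.19), the opposite direction from Pde4b. Pde4a (ENSRNOG00000020828) had 1.11, 1.10, 1.12 and 2.07 CPM in the FSH livers, against 2.04, 1.62, 1.02, 2.13 and 1.17 CPM in the vehicle livers. FSH replicates 1 to 3 were near the low end of the vehicle range and FSH replicate 4 was near its high end. Its log2 fold change was −0.24 (SE 0.29), with −0.52 without FSH replicate 4 and −0.12 without vehicle replicate 4.

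The make-up of the Pde4 counts also differed between the groups. Pde4b held 29.9, 39.9, 23.0 and 21.7% of the Pde4 counts in the FSH livers, against 42.3, 59.4, 60.4, 47.7 and 50.3% in the vehicle livers. Pde4d held 30.2, 21.4, 30.8 and 29.3% in the FSH livers, against 13.4, 11.3, 15.5, 17.1 and 15.7% in the vehicle livers. In both genes the groups did not overlap, Pde4b being lower and Pde4d higher with FSH in every liver. Pde4c, the member of that family outside the 10 genes, held 31.5 ± 3.54% with FSH and 21.8 ± 5.61% with vehicle, and Pde4a held 12.0 ± 4.88% with FSH and 11.5 ± 4.25% with vehicle. The summed Pde4 level was 11.4 ± 0.543 CPM with FSH and 14.4 ± 2.95 CPM with vehicle, and the ranges of 10.8 to 12.0 CPM with FSH and 10.5 to 17.7 CPM with vehicle overlapped. Since the shares add to a fixed total, a lower share of Pde4b raises the others by construction, and the shares restate counts of genes chosen with their differences known.

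**Figure D2:**
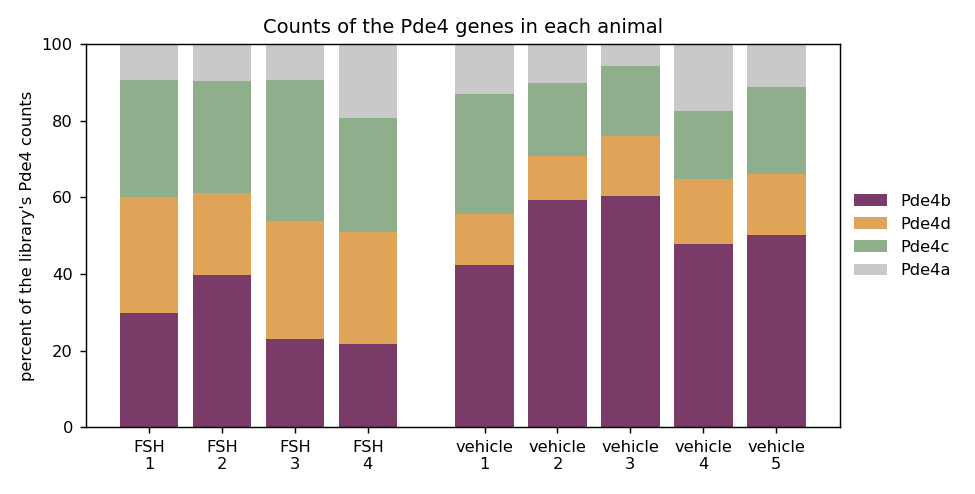
Percent of each library's Pde4 counts that fell on Pde4b, Pde4d, Pde4c and Pde4a, 1 bar per liver, FSH livers left of vehicle livers. Pde4b takes 21.7 to 39.9% in the FSH livers and 42.3 to 60.4% in the vehicle livers, and Pde4d takes 21.4 to 30.8% in the FSH livers and 11.3 to 17.1% in the vehicle livers.

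The remaining 3 phosphodiesterases overlapped between the groups. Pde3b (ENSRNOG00000011417), which insulin activates in hepatocytes and fat cells and cyclic GMP inhibits, had 42.0, 31.4, 34.4 and 35.9 CPM in the FSH livers, against 39.2, 38.3, 37.2, 37.6 and 34.2 CPM in the vehicle livers. Its FSH livers held both the highest and the lowest value of all 9, and the log2 fold change was −0.06 (SE 0.09). Without FSH replicate 2 it changed sign, to 0.000622. Pde8a (ENSRNOG00000019005), a high-affinity enzyme for cyclic AMP, had 40.9, 38.9, 40.4 and 36.4 CPM in the FSH livers, against 38.7, 39.3, 38.4, 36.7 and 38.5 CPM in the vehicle livers. Its log2 fold change was 0.03 (SE 0.06), and the SD of log2 CPM within groups, 0.06, was the smallest among the 10 genes. Pde7a (ENSRNOG00000013048), also specific for cyclic AMP, had 1.71, 1.54, 2.12 and 1.77 CPM in the FSH livers, against 1.52, 1.58, 1.27, 2.13 and 1.70 CPM in the vehicle livers, a log2 fold change of 0.12 (SE 0.18) that lay between 0.03 (without FSH replicate 3) and 0.23 (without vehicle replicate 4) when single rats were left out. In Pde8a and Pde7a the groups overlapped over most of their range.

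**Figure D3:**
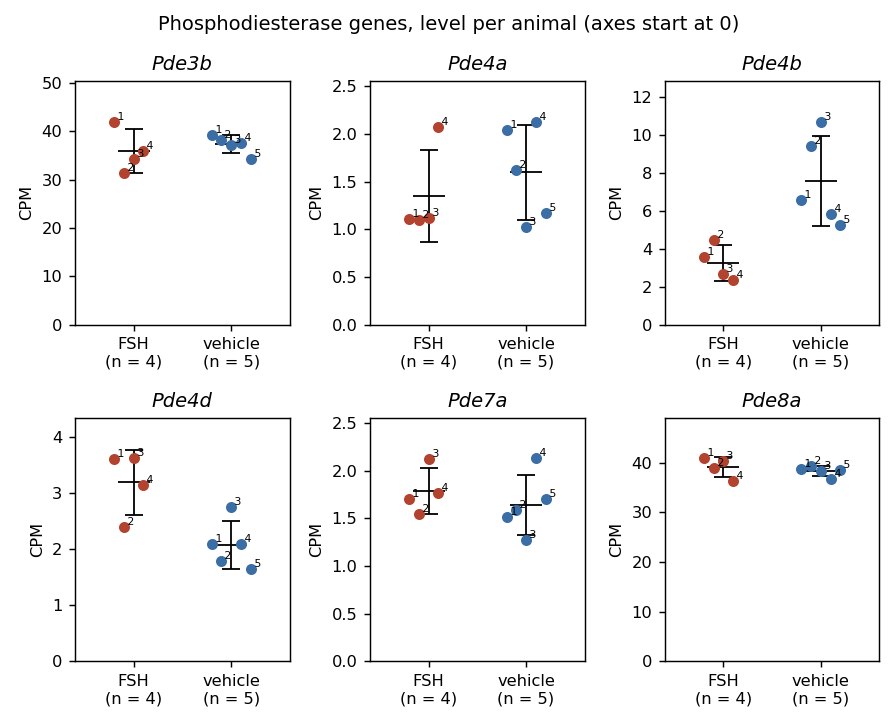
CPM of the 6 phosphodiesterase genes in each liver, FSH (n = 4) left of vehicle (n = 5), with the replicate number beside each point, the mean as a long bar and the SD as short bars. Pde4b is between 2.33 and 4.46 CPM in the FSH livers and at least 5.26 CPM in the vehicle livers, 3 of 4 FSH livers are above all vehicle livers for Pde4d, and the other panels overlap.

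In total 7 of the 10 genes had positive and 3 had negative log2 fold changes, with a median of 0.18, where the median of all genes tested was 0.00. In edgeR's quasi-likelihood test over all genes, 0 of the 10 passed an adjusted p of 0.05, and 0.0335% of all genes tested did. At an unadjusted p under 0.05 there were 4 of the 10, namely Adcy9, Adcy10, Pde4b and Pde4d, and 11.6% of all genes. DESeq2's Wald test placed 2 of the 10 past an adjusted p of 0.05, Adcy10 upward and Pde4b downward. It did so for 1.64% of the 11222 genes to which it gave an adjusted p. The choice of the 10 genes used this contrast, so these counts carry no weight of their own.

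Animals of the same group also differed, which the choice of the genes did not use. Adcy10 had the largest within-group SD, 0.69 on the log2 scale, with 0.32 among FSH livers and 0.86 among vehicle livers. To describe which genes varied together, the group mean was subtracted from log2 CPM and Pearson's r was taken over the 9 libraries, as a description with no test. Of 45 pairs among the 10 genes, 20 were positive and 25 negative, with a median of −0.05, so the set did not move as one. The highest value was 0.65 for Adcy6 with Adcy9, and the lowest was −0.81 for Adcy6 with Adcy10. Livers that were high in Adcy6 for their group were thus low in Adcy10, although both genes had positive fold changes between the groups. Adcy1 went with Adcy10 (r = 0.59) and against Adcy6 (r = −0.75). Adcy9 went against Pde4a (r = −0.78), and Pde4b against Pde7a (r = −0.72). All values of a library share its depth and scaling.

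**Figure D4:**
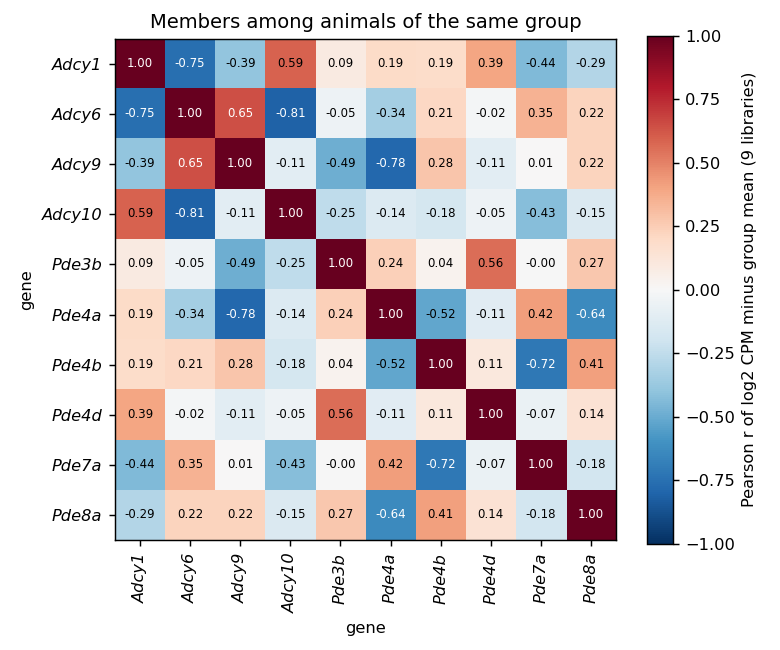
Pearson's r of log2 CPM after subtracting the group mean, over 9 libraries, for each pair of the 10 genes, blue for negative and red for positive. Values run from −0.81 for Adcy6 with Adcy10 to 0.65 for Adcy6 with Adcy9, and no block of same-signed cells covers the cyclases or the phosphodiesterases.

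The gene most like each member by this measure was sought among 10278 genes with a mean of at least 1 CPM. For Adcy10 it was Mro (r = 0.97), with 19.1 ± 1.15 CPM in FSH livers and 13.5 ± 2.50 CPM in vehicle livers. For Pde4b it was Gata6 (r = 0.96), a transcription factor gene, with 7.94 ± 1.44 CPM with FSH and 7.87 ± 1.02 CPM with vehicle, so it did not share the difference of Pde4b between the groups. The others were Ccdc62 for Adcy1 (0.97), Tnrc6c for Adcy6 (0.98), Fn1, the fibronectin gene, for Adcy9 (0.97), Prom1 for Pde3b (0.95), Zbtb49 for Pde4a (0.96), Wdcp for Pde4d (0.96), Sft2d3 for Pde7a (0.98) and Eif3el1 for Pde8a (0.95). Each of these is the highest of many candidates over only 9 libraries, and no more is read from them.

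Outside the 10 genes, 91 genes of the pathway were listed by role, of which 87 were in the table, 9 of them at 0 in every library, and 61 could be tested. Of these, 29 had higher and 32 lower fitted values with FSH, and the median log2 fold change was −0.00. An adjusted p of 0.05 was passed by 0 of them in edgeR's quasi-likelihood test or in DESeq2. DESeq2 gave no adjusted p for some of the 61, among them Pde1a, Pde6c and Sctr, so these could not pass there. At an unadjusted p under 0.05 in edgeR there were 7 of the 61, and 11.6% of all genes tested, so nothing is read from this count. The lists were made by role, with earlier results of these data known.

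Of the receptors and G proteins upstream of the cyclases, Gcgr, the glucagon receptor, averaged 245 ± 19.8 CPM in FSH livers and 221 ± 25.1 CPM in vehicle livers, a log2 fold change of 0.15 (SE 0.10). Sctr, the secretin receptor, had −0.42 (SE 0.27). Of 8 receptors coupled to the stimulatory G protein that could be tested, 4 were higher and 4 lower. All 5 tested genes of the inhibitory branch had negative values, from −0.59 to −0.06. In edgeR 1 of the 5 had an unadjusted p under 0.05, where 11.6% of all genes tested did. The 5 included Gnai2, an inhibitory G protein subunit, at −0.15 (SE 0.08), and Adora1, the adenosine A1 receptor. Adora1 averaged 12.9 ± 2.67 CPM in FSH livers and 19.5 ± 5.01 CPM in vehicle livers, with −0.59 (SE 0.21) and an adjusted p of 0.350 in edgeR.

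Among the other enzymes of cyclic nucleotide turnover with enough counts to be tested, log2 fold changes were closer to 0 than those of Adcy10 and Pde4b. Adcy10 and Pde4b were chosen with their differences known, so nothing is read from this comparison. The 4 other cyclases that could be tested had log2 fold changes between −0.15 and 0.04, with Adcy3 at −0.15 (SE 0.19), or −0.02 without FSH replicate 3, and Adcy5 at −0.08 (SE 0.11), or −0.15 without vehicle replicate 2. Pde2a, which cyclic GMP stimulates, had 33.8, 29.7, 29.2 and 28.0 CPM in FSH livers, against 25.5, 21.8, 23.4, 26.8 and 25.4 CPM in vehicle livers. Every FSH liver lay above every vehicle liver, as in 2.19% of all genes tested. The log2 fold change was 0.30 (SE 0.08), and the gene missed the threshold (edgeR adjusted p = 0.253). Pde1a, a calmodulin-dependent enzyme, had −0.32 (SE 0.22). Of the enzymes specific for cyclic GMP, Pde5a had 0.26 (SE 0.29) and, without vehicle replicate 4, 0.50, or 0.14 without vehicle replicate 2. Pde6c had −0.50 (SE 0.34) and, without FSH replicate 1, −0.23.

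Downstream, the protein kinase A subunits Prkaca and Prkar1a had −0.07 (SE 0.08) and −0.04 (SE 0.07), and the regulatory subunit Prkar2a had 0.38 (SE 0.16). Pkig, an inhibitor of the kinase, had −0.20 (SE 0.08), and among 10 anchoring proteins Akap11 had 0.28 (SE 0.09) and Akap6 0.37 (SE 0.25), which was 0.21 without FSH replicate 4. Rapgef4, which encodes Epac2, the exchange factor that cyclic AMP opens, was at 46.0, 46.8, 59.9 and 69.9 CPM with FSH, against 26.3, 23.7, 59.5, 31.9 and 38.8 CPM with vehicle. Vehicle replicate 3 lay among the FSH livers and the other vehicle livers lay below them. Its log2 fold change was 0.63 (SE 0.25), at an adjusted p of 0.390 in edgeR. Popdc2, a cyclic AMP-binding membrane protein, had −0.28 (SE 0.47), with −0.81 on leaving out FSH replicate 2 and 0.00 on leaving out vehicle replicate 3.

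CREB-family genes and liver targets of the pathway went in both directions. Crem, a CREB-family factor, had 0.34 (SE 0.17) and Atf1, another, 0.17 (SE 0.11), which was 0.10 without FSH replicate 1. Of 9 liver targets tested, 6 had positive and 3 negative log2 fold changes. Tat, the tyrosine aminotransferase gene, averaged 959 ± 327 CPM in FSH livers and 1768 ± 764 CPM in vehicle livers. Every FSH liver lay below every vehicle liver, as in 1.92% of all genes tested. The groups nearly touched, at 1296 CPM in FSH replicate 1 and 1304 CPM in vehicle replicate 4. The log2 fold change of Tat was −0.88 (SE 0.31), at an adjusted p of 0.340 in edgeR. Without vehicle replicate 2 its value was −0.58. Igfbp1, a secreted binding protein of insulin-like growth factors, averaged 311 ± 89.4 CPM in FSH livers and 161 ± 114 CPM in vehicle livers. Its value was 0.95 (SE 0.50), at an adjusted p of 0.501 in edgeR. On leaving out single rats it lay between 0.68 and 1.43, the latter without vehicle replicate 2.

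**Figure D5:**
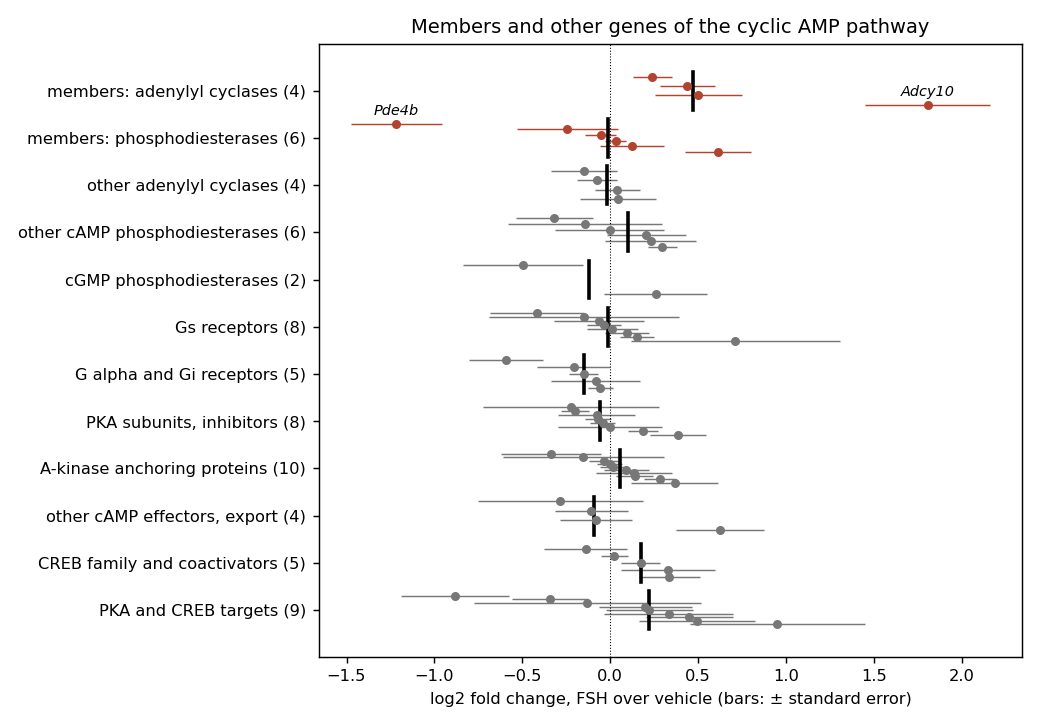
Log2 fold change, FSH over vehicle, with its standard error as a bar, for the 10 genes (red, top 2 rows) and the other pathway genes by role (grey), the number tested in brackets and the median of each row as a black line. Adcy10 at 1.81 and Pde4b at −1.22 are the outermost points, and the row medians lie between −0.15 and 0.22 except that of the cyclases at the top, at 0.47.

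Markers of other liver cells are given because several of these genes are also expressed outside hepatocytes. The summed level of 8 Kupffer cell markers was 357 to 526 CPM with FSH (median 377) and 194 to 590 CPM with vehicle (median 424), with 3 of the 8 higher and 5 lower. The 7 T, NK and B cell markers summed to 3.45 to 5.32 CPM with FSH (median 3.78) and 2.88 to 7.46 CPM with vehicle (median 4.14), and of the 4 that could be tested 2 were higher and 2 lower. Stellate cell markers were lower with FSH in 8 of 8, and their sums did not overlap, at 174 to 209 CPM with FSH (median 190) and 223 to 289 CPM with vehicle (median 245). Most of these sums came from Col3a1, which averaged 115 CPM with FSH and 158 CPM with vehicle. Of the 8 markers, only Col3a1 had every FSH liver below every vehicle liver, as did 1.92% of all genes tested. The other markers of this list overlapped between the groups. Endothelial markers were higher in 7 of 7, at 229 to 319 CPM with FSH (median 254) and 188 to 259 CPM with vehicle (median 205). Of these, 2 (Stab1 and Clec4g) had every FSH liver above every vehicle liver, as did 2.19% of all genes tested. Lyve1 differed little, with a log2 fold change of 0.04 (SE 0.09). Erythroid and blood genes were higher in 4 of 4, at 121 to 490.1 CPM with FSH (median 223) and 75.9 to 157 CPM with vehicle (median 100.2). Cholangiocyte markers summed to 9.33 to 17.7 CPM with FSH and 11.9 to 20.7 CPM with vehicle, and neutrophil markers to 0.874 to 3.28 CPM with FSH and 0.900 to 2.60 CPM with vehicle. Hepatocyte markers summed to 170109 to 274800 CPM with FSH and 191078 to 238353 CPM with vehicle, and 0 markers of any list were at 0 in every library. Among animals of the same group, Pde4b went against the stellate marker sum (r = −0.64, 9 libraries). It also went against the Kupffer (r = −0.56) and T, NK and B cell sums (r = −0.71). Adcy10 went with the Kupffer sum (r = 0.68) and not with the stellate sum (r = 0.03). Such values were taken for every chosen gene with every marker list, and only some are given here. Larger values were found for genes that differed little between the groups. Pde7a went with the T, NK and B cell sum (r = 0.85), and Pde8a went against the stellate sum (r = −0.81). No link of Adcy10 or Pde4b to a cell type is therefore read from these values. The part of cell composition in the differences of Adcy10, Pde4b and Pde2a was not tested.

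Library totals were 23430807 to 27008941 counts in the FSH group and 19295580 to 28672439 counts in the vehicle group, so 1 count was worth 0.0386 to 0.0432 CPM with FSH and 0.0353 to 0.0532 CPM with vehicle. The library of FSH replicate 1 was unlike the rest: 19.4% of its counts fell on Alb, the albumin gene of hepatocytes, against 10.5 to 16.7% elsewhere. Without this library the log2 fold change was 1.87 for Adcy10 and −1.26 for Pde4b.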

How the data were processed

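The authors deposited unnormalised counts of reads per gene for 9 livers, 1 library per rat. Per the submitters' processing notes, STAR, the build rn6, DESeq2 and edgeR were used, in roles and versions that they do not give. Which annotation was counted, and whether by strand, is likewise not stated there or in the labels. The 4 FSH libraries were set against the 5 vehicle libraries with edgeR 4.0.16 in R 4.3.3 (trimmed mean of M values, filtering of low counts by group, 2-sided quasi-likelihood F-test, Benjamini-Hochberg adjustment over 11924 genes, threshold 0.05). The tested genes hold 99.96% of all counts. CPM are counts per 1e6 after the same scaling, and log2 CPM used a prior count of 2. The replicates are separate animals. The 10 genes, the gene lists and the markers were chosen with earlier results of these data known. Each role list gave up to 4 genes past the threshold to be named, or otherwise its 2 lowest p-values, beside Fshr, Gcgr, Prkaca, Prkar1a and Alb, and for each of the 10 genes the most similar one. Pde4c, Col3a1 and the neighbours of Adcy10 were named after their values were seen. Some genes on the lists or taken by this rule are not reported here. Alternatives were DESeq2 1.42.0, other scalings and filters, a threshold of 0.10, a replicate block, and leaving out each animal. The steps were tested on simulated data. Promoter windows and gene order came from RefSeq (GRCr8), another build than that of the counts, and no coordinates of the counted genes are given.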

Additional observations from a re-analysis of the deposited data

Results flagged for a closer look

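Of 88 sets of values (a gene in 1 group), 4 held an animal whose gap to the nearest other exceeded Dixon's limit, where chance gives about 4.4 at 1 in 20. Pde4a in FSH replicate 4 was the highest of its group at 2.07 CPM, with the next at 1.12 CPM. Adcy3 in FSH replicate 3 was the lowest at 1.77 CPM, with the next at 2.68 CPM. Adcy3 in vehicle replicate 5 was the highest at 3.77 CPM, with the next at 2.62 CPM. Tat in vehicle replicate 2 was the highest at 3116 CPM, with the next at 1628 CPM.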

How the results depend on the processing

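The count of all genes past an adjusted p of 0.05 was 4 in edgeR, 184 in DESeq2 and 12 at a threshold of 0.10. It was 0 to 4 on leaving out single animals (0 without FSH replicate 1, FSH replicate 3, vehicle replicate 1 or vehicle replicate 4, 1 without FSH replicate 4, and 2 without vehicle replicate 3 or vehicle replicate 5). Of the 10 genes, 2 passed in DESeq2, Adcy10 and Pde4b, and 0 passed in each edgeR alternative. Of the other pathway genes 0 passed in any alternative. The cause of the gap between the tools was not tested. With the replicate block 5 genes passed, and 0 of the 10 genes. The replicate numbers are only names: deviations of same-numbered animals correlated at −0.0407 to 0.0351, and 0 of 4 FSH and 0 of 4 vehicle animals correlated best with their own number. Across the alternatives, 9 of the 10 genes kept the sign of their fold change, Pde3b being the exception. Low depth limits Adcy1, Pde4a and Pde7a, which rest on 18 to 55 counts per library. Counts per library were lower still for Pde6c (5 to 23), Sctr (8 to 21), Pde5a (10 to 32) and Pde1a (12 to 23).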
